A study of Mus musculus with 16 samples.

Results

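Collagen chains leave the endoplasmic reticulum only after a set of enzymes has modified them. The genes for these enzymes and their partners were followed here in mouse embryo heads with and without Ift88, a gene needed to build cilia. The set held 10 genes, chosen by symbol from the 24421 symbols in the count files: P4ha1, P4ha2, P4ha3, P4hb, Plod1, Plod2, Plod3, Lox, Loxl2 and Serpinh1. They were chosen with earlier results of these data known. All 10 were among the 14514 genes that reached 10 counts in at least 4 libraries and were tested. The lowest count of any of them in any library was 80, for Lox. Only 6 of the 10 encode the catalytic part of a prolyl or lysyl hydroxylase, and the other 4 work beside them.

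Prolyl hydroxylation by P4ha enzymes lets the collagen triple helix stay folded at body temperature. Lysyl hydroxylation by Plod enzymes prepares the sites where sugars are attached and where fibres are later joined. Both kinds of enzyme use molecular oxygen, iron, ascorbate and alpha-ketoglutarate, and several of their genes are known to be induced when oxygen is low. Lox and Loxl2 act outside the cell, where they oxidise lysines so that fibres cross-link.

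RNA was sequenced from 16 libraries of head tissue of third-generation (F3) embryos at embryonic day 8.5, cut from the first branchial arch to just above the otic vesicle. The groups held 4 libraries each: homozygous IFT88-null embryos on the 10 ppm folic acid diet (enriched), IFT88-null embryos on the 2 ppm diet (moderate), wild type on 10 ppm and wild type on 2 ppm. All mice had been kept on one of the diets for 3 generations. The tissue mixes neuroepithelium, mesenchyme, surface ectoderm, vessels and blood. The labels number and sex the embryos and name no litter, so each p-value rests on the spread among these libraries, which may be partly technical. In bulk tissue, fewer cells of a type and less RNA per cell cannot be told apart.

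Libraries held between 19249433 and 44267434 counts in genes. Ift88 averaged 4.93 ± 2.69 CPM (counts scaled to a common library size) in enriched diet mutants, 3.81 ± 1.87 CPM in moderate diet mutants, 19.6 ± 1.42 CPM in enriched diet wild type and 17.7 ± 5.63 CPM in moderate diet wild type (SD, n = 4 each). Every mutant lay below every wild type library. Replicate 2 of the libraries labelled moderate diet wild type held 9.3 CPM of Ift88, or 46.5% of the mean in the remaining 7 wild type embryos. In 3 libraries (moderate diet mutant replicates 1 and 2 and that same wild type library) Xist and Y-linked counts contradicted the labelled sex. Whether labels were exchanged, or whether that wild type library carries 1 null allele or is a mixture, cannot be told apart here, so moderate diet values rest on labels that are partly in doubt. Summed markers of decidua and trophoblast, maternal and placental tissue, reached 191 CPM in enriched diet mutant replicate 3 and at most 8.08 CPM in the other groups. A single gene, Prl8a2, gave 189 CPM of that sum. Tpbpa, Cts7, Ctsq and Psg17 of the same list were at 0 in all enriched diet mutants.

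P4ha1, P4ha2 and Loxl2 rose in mutants on both diets, by 2.35-, 3.39- and 2.72-fold as the mean of both diets, and passed in every alternative run. Plod2 and Lox also passed on both diets, at 2.32- and 2.03-fold. On the moderate diet the Plod2 call was lost without the 3 libraries of contradicted sex (edgeR adjusted p = 0.0685), and Lox passed narrowly (edgeR adjusted p = 0.049), with overlapping libraries, and lost its call in 20 of 27 alternatives. Plod1 and P4ha3 rose by 1.21- and 1.18-fold as that mean. P4hb, Plod3 and Serpinh1 did not pass the test for genotype on either diet or as the mean. On the enriched diet 5 of the 10 genes rose and none fell, where 14.4% of all genes tested rose and 16.8% fell (edgeR's quasi-likelihood test, adjusted by Benjamini-Hochberg, threshold 0.05). On the moderate diet 6 of the 10 rose and none fell, where 4.79% of all genes rose and 2.83% fell. These moderate diet counts depend on the libraries used. Without the 3 libraries of contradicted sex, which leaves 2 mutants on that diet, 3 of the 10 genes and 105 of all genes passed. With every library, 6 and 1106 passed, against 6 and 1080 with sex read from counts and 5 and 1097 without a sex term. Leaving out mutant replicate 1 or mutant replicate 3 of the moderate diet gave 538 or 2107 of all genes. Over both diets 7 rose and none fell, where 17.4% of all genes rose and 18.5% fell. Mutant libraries lay wholly above wild type for 6 of the 10 genes on each diet, where 11.2% of all genes did so on the enriched diet and 8.5% on the moderate diet. The median log2 fold change of the 10 genes was 0.69 on the enriched diet and 0.63 on the moderate diet, against a median of -0.01 over all genes on either diet. Because the set was chosen with earlier results known, these counts and medians describe it and are not independent evidence. No gene of the set passed for diet in either genotype, nor for the difference between the 2 genotype effects.

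**Figure D1:**
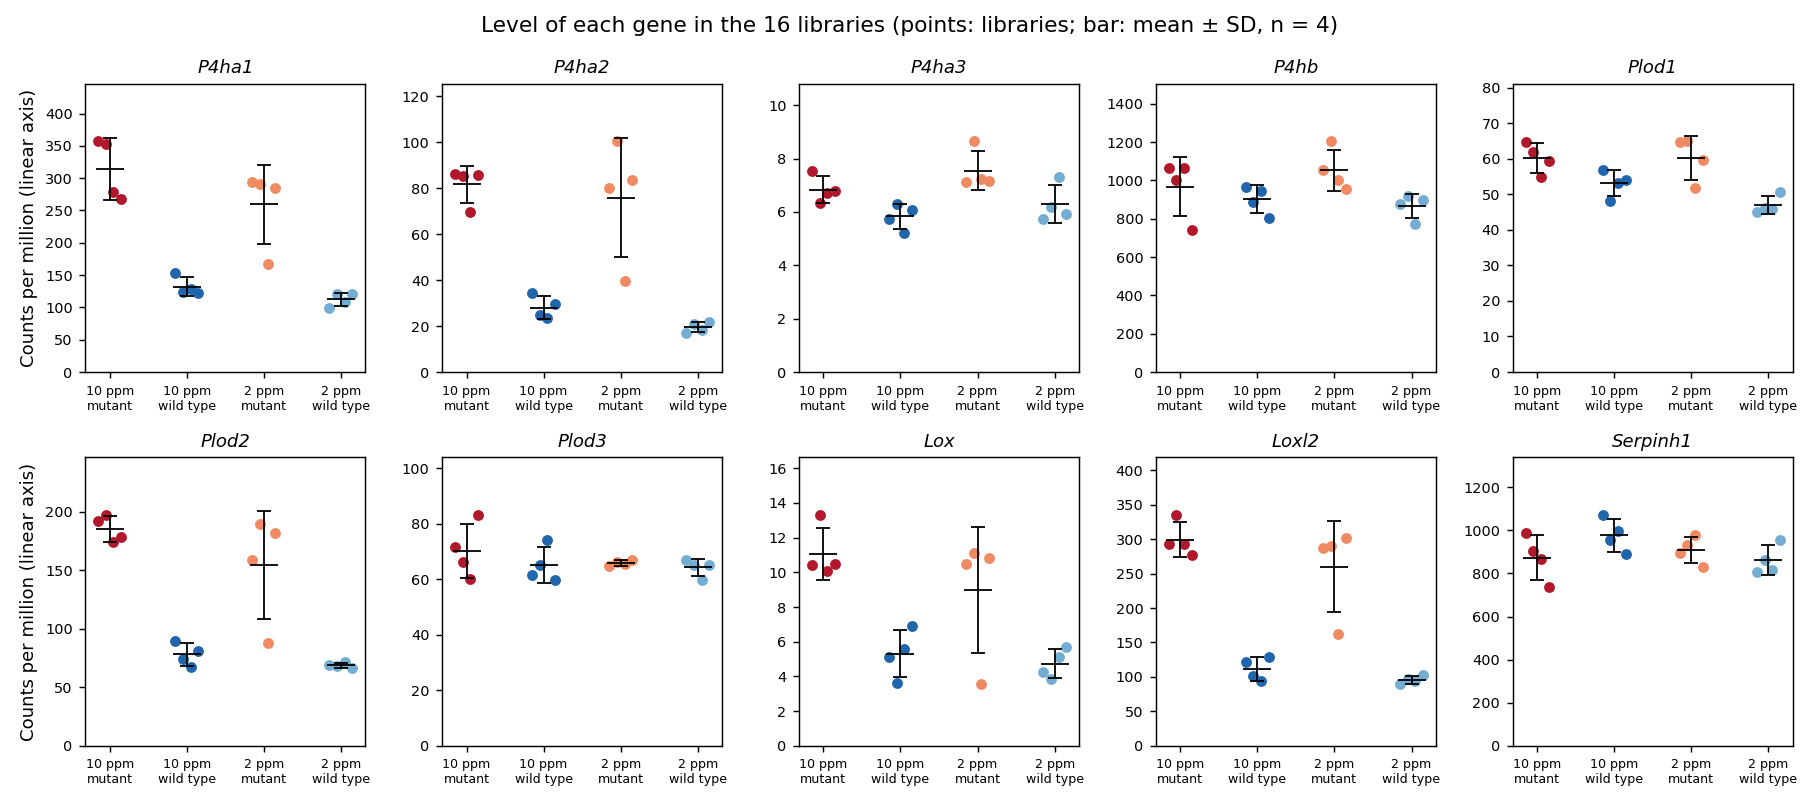
Level of each of the 10 genes in CPM on linear axes that start at 0, by diet and genotype; points are libraries, bars are mean ± SD of 4. All mutants lie above all wild type libraries for P4ha1, P4ha2 and Loxl2, with moderate diet mutant replicate 3 the lowest mutant in each.

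The prolyl hydroxylase is built from an alpha subunit, which carries the active site, and the beta subunit P4hb, which doubles as protein disulfide isomerase. P4ha1, the main alpha subunit of most tissues, lies on chromosome 10 from 59323296 to 59373304 of GRCm38. Its level was 357, 353, 278 and 267 CPM in enriched diet mutants, against 153, 124, 129 and 122 CPM in enriched diet wild type. Among the moderate diet mutants it was 294, 291, 167 and 285 CPM, against 99.0, 120.1, 109 and 121 CPM in moderate diet wild type. The groups did not overlap on either diet, and replicate 3 of the moderate diet mutants was the mutant nearest to wild type. The log2 fold change was 1.27 ± 0.16 (SE) on the enriched diet (edgeR adjusted p = 0.00012) and 1.20 ± 0.16 on the moderate diet (edgeR adjusted p = 0.000184).

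P4ha2, another alpha subunit, known from cartilage and bone, lies on chromosome 11 from 54100095 to 54131665 and had the largest fold of the 10. Enriched diet mutants held 86.3, 85.4, 69.6 and 85.6 CPM, against 34.2, 24.8, 23.6 and 29.6 CPM in enriched diet wild type. Moderate diet mutants held 80.1, 100.4, 39.6 and 83.5 CPM, against 16.8, 21.1, 18.5 and 21.8 CPM in moderate diet wild type. Again no mutant reached down to a wild type library. The log2 fold change was 1.57 ± 0.21 on the enriched diet (edgeR adjusted p = 0.000178) and 1.95 ± 0.21 on the moderate diet (edgeR adjusted p = 3.78e-05). The difference between these effects, -0.38 with a 95% interval of -1 to 0.24, did not pass (edgeR adjusted p = 0.591).

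P4ha3, the least abundant alpha subunit here, lies on chromosome 7 from 100285520 to 100319699. Its level ran from 6.32 to 7.52 CPM in enriched diet mutants, against 5.23 to 6.31 CPM in enriched diet wild type. Among the moderate diet mutants it ran from 7.14 to 8.65 CPM, against 5.72 to 7.33 CPM in moderate diet wild type. The groups nearly touched on the enriched diet and overlapped on the moderate diet, and neither comparison passed (edgeR adjusted p = 0.157 and 0.179). Taken over both diets it rose by 1.18-fold (edgeR adjusted p = 0.0309), a call lost without wild type replicate 1 of the moderate diet or without the 3 libraries of contradicted sex.

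P4hb, on chromosome 11 from 120560298 to 120573253, was expressed far above the alpha subunits. Enriched diet mutants held 1065, 999.6, 1065 and 739.8 CPM, against 967, 888, 946 and 806 CPM in enriched diet wild type. Moderate diet mutants held 1052, 1204, 1002 and 955 CPM, against 878, 917, 773 and 897 CPM in moderate diet wild type. All 4 moderate diet mutants lay above their wild type, while enriched diet mutants spread on both sides of theirs, with replicate 4 the lowest of all 16 libraries. Neither difference passed, at 0.06 ± 0.10 on the enriched diet (edgeR adjusted p = 0.686) and 0.29 ± 0.10 on the moderate diet (edgeR adjusted p = 0.0972). Over both diets the log2 fold change was 0.17 with a 95% interval of 0.02 to 0.33 (edgeR adjusted p = 0.0736). P4hb gained the moderate diet call in 1 of 27 alternatives, without enriched diet mutant replicate 4 (edgeR adjusted p = 0.036). For the mean of both diets it gained the call in 7 of 26, that run among them. Enriched diet mutant replicate 4 also held 139 CPM of yolk sac markers. The part of such tissue in its P4hb value was not tested.

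Within a library, the summed alpha subunits per kilobase of exon came to 27.7, 29.0, 21.7 and 31.2% of P4hb in enriched diet mutants, against 13.1, 11.7, 11.2 and 12.9% in enriched diet wild type. Among the moderate diet mutants they came to 23.5, 21.3, 14.1 and 25.4%, against 9.32, 10.8, 11.7 and 11.1% in moderate diet wild type. Every mutant had a higher ratio of alpha to beta transcripts than every wild type library. P4ha1 made up most of the alpha transcripts in all groups, with 83.2 ± 1.94% in enriched diet mutants, 81.4 ± 1.68% in moderate diet mutants, 83.5 ± 1.46% in enriched diet wild type and 84.1 ± 0.587% in moderate diet wild type (SD, n = 4). P4ha2 made up 14.4 ± 1.72% in enriched diet mutants, 15.4 ± 2.13% in moderate diet mutants, 11.7 ± 1.25% in enriched diet wild type and 9.66 ± 0.32% in moderate diet wild type. These ratios restate the levels above and were not tested.

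**Figure D2:**
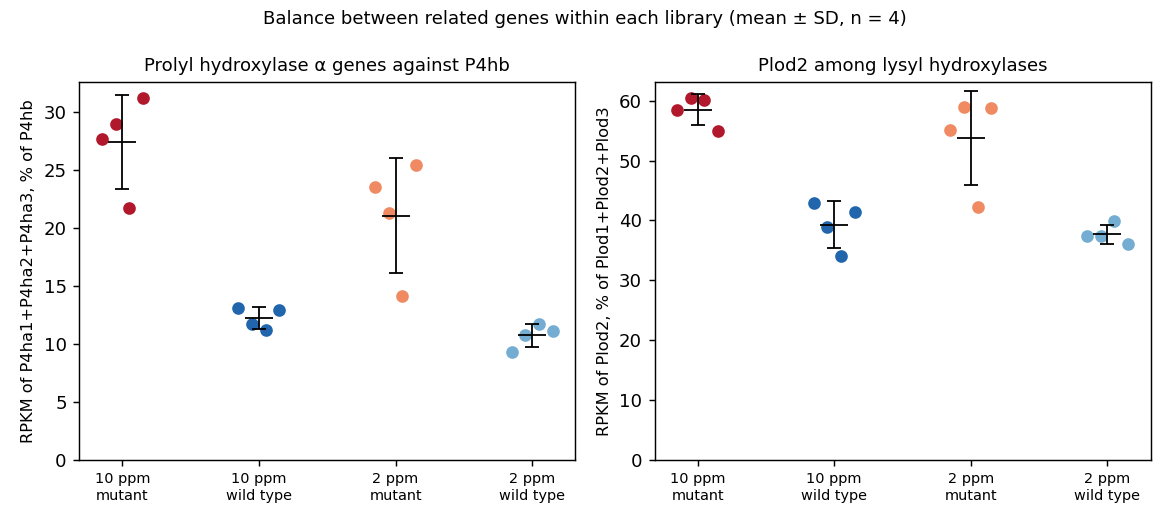
Left, summed RPKM (CPM per kilobase of exon) of P4ha1, P4ha2 and P4ha3 as a percentage of P4hb; right, RPKM of Plod2 as a percentage of the 3 Plod genes, by diet and genotype on axes that start at 0. Points are libraries and bars are mean ± SD of 4; moderate diet mutant replicate 3, at 14.1 and 42.3%, is the lowest mutant in both panels.

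The promoters of the prolyl hydroxylase genes are shown because the subunits moved apart. They are RefSeq windows of GRCm38.p6 from 250 bases before to 50 bases after the annotated start, which for P4ha2 is not the first base of the gene in GENCODE. RefSeq windows were found for 7 of the 10 genes, and not for Plod2, Lox and Loxl2. Capitals mark ACGTG and GCGTG, the core letters bound by hypoxia-inducible factors, on either strand. No matches overlap in the windows shown. Each line is read 5′ to 3′ on the strand of the gene.
P4ha1 (chr10:59323046-59323345, plus strand): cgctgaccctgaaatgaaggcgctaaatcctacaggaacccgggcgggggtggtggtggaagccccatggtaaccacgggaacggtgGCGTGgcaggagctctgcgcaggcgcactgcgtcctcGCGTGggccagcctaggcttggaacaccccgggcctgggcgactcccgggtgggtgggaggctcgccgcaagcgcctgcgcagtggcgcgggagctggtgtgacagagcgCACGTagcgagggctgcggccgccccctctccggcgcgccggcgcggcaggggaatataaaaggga
P4ha2 (chr11:54100674-54100973, plus strand): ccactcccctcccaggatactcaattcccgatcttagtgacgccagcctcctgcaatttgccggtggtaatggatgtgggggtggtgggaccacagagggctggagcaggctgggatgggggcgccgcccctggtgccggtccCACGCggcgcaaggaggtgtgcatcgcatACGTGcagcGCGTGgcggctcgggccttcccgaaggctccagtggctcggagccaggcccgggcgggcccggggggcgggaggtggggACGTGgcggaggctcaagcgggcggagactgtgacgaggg
P4ha3 (chr7:100285270-100285569, plus strand): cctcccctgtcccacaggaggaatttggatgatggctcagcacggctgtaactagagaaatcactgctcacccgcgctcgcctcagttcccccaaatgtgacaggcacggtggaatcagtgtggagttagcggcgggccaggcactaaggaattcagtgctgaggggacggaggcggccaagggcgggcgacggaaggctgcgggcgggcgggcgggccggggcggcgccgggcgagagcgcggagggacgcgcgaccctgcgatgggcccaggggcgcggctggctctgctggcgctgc
P4hb (chr11:120573204-120573503, minus strand): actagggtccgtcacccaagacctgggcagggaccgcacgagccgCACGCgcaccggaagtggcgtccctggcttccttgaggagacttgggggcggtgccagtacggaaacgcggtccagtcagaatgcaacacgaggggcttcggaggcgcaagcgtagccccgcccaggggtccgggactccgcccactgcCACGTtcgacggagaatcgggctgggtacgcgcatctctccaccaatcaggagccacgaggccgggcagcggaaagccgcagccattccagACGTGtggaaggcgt

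These letters occur in 3 places in the P4ha1 window, in 4 in that of P4ha2, in none in that of P4ha3 and in 3 in that of P4hb. The P4ha1 matches begin at -163, -126 and -16 from the start, and those of P4ha2 at -107, -78, -69 and 11. The windows of Plod1, Plod3 and Serpinh1 hold 2, 4 and 1. Of all 32851 RefSeq windows of this length, 43.8% hold at least 1 such match, and GC content is 70.3% in the P4ha1 and P4ha2 windows, 69.3% for P4ha3 and 67.0% for P4hb, against a mean of 53.8% over all windows. Matches were present in P4ha1, P4ha2 and Plod1, which rose on the moderate diet, and in P4hb, Plod3 and Serpinh1, which did not pass. P4ha3, which passed only as the mean of both diets, had none. Plod2, Lox and Loxl2 had no window to read. The part of these matches in the levels was not tested.

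Among lysyl hydroxylases, Plod2 moved most. Plod2 encodes the enzyme that hydroxylates lysines in the ends of collagen chains, where cross-links form, and lies on chromosome 9 from 92542223 to 92608428. It stood at 192, 197, 174 and 178 CPM in enriched diet mutants, against 89.7, 73.9, 67.5 and 80.7 CPM in enriched diet wild type. Moderate diet mutants held 159, 189, 87.4 and 182 CPM, against 68.9, 68.3, 71.6 and 66.4 CPM in moderate diet wild type. Mutants and wild type were apart on each diet, though moderate diet mutant replicate 3 lay below the highest enriched diet wild type library. The log2 fold change was 1.27 ± 0.17 on the enriched diet (edgeR adjusted p = 0.000188) and 1.16 ± 0.17 on the moderate diet (edgeR adjusted p = 0.000526). The moderate diet call was lost when the 3 libraries of contradicted sex were left out, which leaves 2 mutants (0.99, edgeR adjusted p = 0.0685).

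Plod1, which acts on lysines of the triple helix, lies on chromosome 4 from 147909753 to 147936767. It ran from 54.8 to 64.6 CPM in enriched diet mutants, against 48.2 to 56.9 CPM in enriched diet wild type, and from 51.8 to 64.9 CPM in moderate diet mutants, against 45.0 to 50.7 CPM in moderate diet wild type. On the moderate diet it rose by 0.36 ± 0.08 on the log2 scale (edgeR adjusted p = 0.0129). On the enriched diet the difference was 0.20 ± 0.08 and did not pass (edgeR adjusted p = 0.0726). The difference between the 2 effects did not pass either (-0.15, 95% interval -0.40 to 0.09, edgeR adjusted p = 0.584). Leaving out mutant replicate 1, mutant replicate 2 or wild type replicate 3 of the moderate diet, or the 3 libraries of contradicted sex, ended the moderate diet call.

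Plod3, which also transfers glucose and galactose to collagen, lies on chromosome 5 from 136987019 to 136996648. It ran from 60.0 to 83.1 CPM in enriched diet mutants, against 59.8 to 74.2 CPM in enriched diet wild type, and from 64.7 to 66.9 CPM in moderate diet mutants, against 59.8 to 66.8 CPM in moderate diet wild type. The groups overlapped on both diets (edgeR adjusted p = 0.364 and 0.86), and the 95% interval of the mean effect of genotype was -0.06 to 0.21 on the log2 scale. Its exons share 11.7% of their bases with Znhit1 on the other strand, which the unstranded library kit cannot separate. The like share was 6.42% for Plod2, with the predicted gene Gm38391, and 5.57% for Loxl2, with the antisense gene Gm27177.

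Per kilobase of exon, Plod2 made up 58.4, 60.5, 60.2 and 54.9% of the 3 lysyl hydroxylase transcripts in enriched diet mutants, against 43.0, 38.9, 34.0 and 41.4% in enriched diet wild type. The share was 55.2, 59.0, 42.3 and 58.8% in moderate diet mutants, against 37.4, 37.4, 39.9 and 36.0% in moderate diet wild type. On the enriched diet, Plod2 and Plod3 stood at 34.4 ± 2.00 and 15.5 ± 2.17 RPKM in mutants, against 14.5 ± 1.76 and 14.4 ± 1.42 RPKM in wild type (SD, n = 4). On the moderate diet they stood at 28.6 ± 8.59 and 14.6 ± 0.212 RPKM in mutants, against 12.8 ± 0.402 and 14.2 ± 0.675 RPKM in wild type. Mean Plod2 was thus well above Plod3 in mutants on both diets, level with it in enriched diet wild type and below it in moderate diet wild type.

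The cross-linking oxidases also rose. Loxl2, whose secreted product cross-links basement membrane collagen, lies on chromosome 14 from 69609068 to 69695834. Ift88 lies on the same chromosome, from 57424062 to 57517936. Whether sequence linked to the null allele has a part in the Loxl2 values was not tested. Loxl2 reached 293, 335, 293 and 277 CPM in enriched diet mutants, against 122, 101, 93.9 and 129.6 CPM in enriched diet wild type. Moderate diet mutants held 287, 290.2, 162 and 302 CPM, against 89.3, 97.3, 93.5 and 103 CPM in moderate diet wild type. Each of the 8 mutants was above each of the 8 wild type libraries, as was the case for 2.51% of all genes tested. Its log2 fold changes on the 2 diets were nearly equal, 1.45 ± 0.16 (edgeR adjusted p = 4.19e-05) on the enriched diet and 1.44 ± 0.15 (edgeR adjusted p = 3.78e-05) on the moderate diet, with a difference of 0.01 and a 95% interval of -0.45 to 0.47.

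Lox, the founding lysyl oxidase, lies on chromosome 18 from 52516067 to 52529867 and was low in every library. Enriched diet mutants held 10.4, 13.3, 10.1 and 10.5 CPM, against 5.13, 3.62, 5.58 and 6.93 CPM in enriched diet wild type. Moderate diet mutants held 10.5, 11.1, 3.58 and 10.8 CPM, against 4.27, 3.87, 5.1 and 5.72 CPM in moderate diet wild type. Replicate 3 of the moderate diet mutants was the lowest of all 16 libraries for Lox, while the other 7 mutants lay above every wild type library. The log2 fold change was 1.15 ± 0.27 on the enriched diet (edgeR adjusted p = 0.00509). On the moderate diet it was 0.90 ± 0.26 (edgeR adjusted p = 0.049), and this call was lost in 20 of 27 alternatives. Without mutant replicate 3 of that diet the value was 1.17 (edgeR adjusted p = 0.00028).

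Serpinh1 encodes the chaperone that binds folded procollagen in the endoplasmic reticulum, and lies on chromosome 7 from 99345376 to 99353239. It was at 988, 903, 866 and 738 CPM in enriched diet mutants, against 1071, 957, 997 and 888 CPM in enriched diet wild type. Moderate diet mutants held 895, 931, 977 and 829.9 CPM, against 805, 864, 817 and 957 CPM in moderate diet wild type. The groups overlapped on both diets. Its log2 fold change was -0.18 ± 0.09 on the enriched diet (edgeR adjusted p = 0.13) and 0.08 ± 0.09 on the moderate diet (edgeR adjusted p = 0.642), and the 95% interval for the mean of both diets was -0.19 to 0.08.

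**Figure D3:**
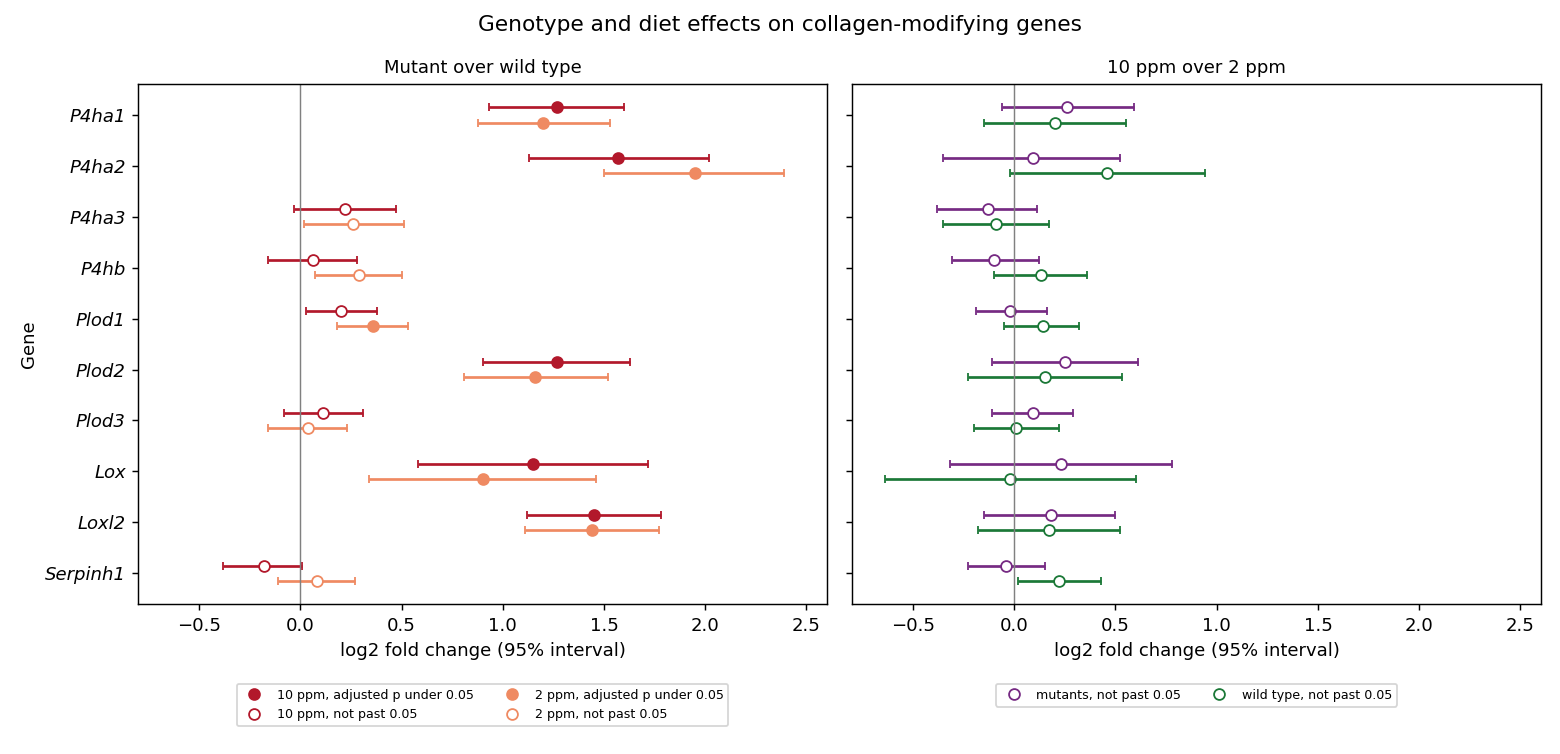
Log2 fold changes of the 10 genes with 95% intervals, left for mutant over wild type on each diet and right for 10 ppm over 2 ppm in each genotype; filled points passed an edgeR adjusted p of 0.05. P4ha1, P4ha2, Plod2, Lox and Loxl2 stand between 0.90 and 1.95 on the left, and no point on the right is filled.

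Ranked by transcripts per kilobase, the set kept much the same order in all groups. Serpinh1 led in enriched diet mutants with 358 ± 42.5 RPKM, in moderate diet mutants with 372 ± 25.4 RPKM, in enriched diet wild type with 400.5 ± 31.2 RPKM and in moderate diet wild type with 352 ± 28.2 RPKM (SD, n = 4). P4hb was next, at 338 ± 54.1, 368 ± 37.8, 315 ± 25.1 and 303 ± 22.5 RPKM in those groups, and in mutants the pair did not differ beyond its spread. P4ha1 followed in each group, at 76.3 ± 11.7 RPKM in enriched diet mutants and 27.3 ± 2.54 RPKM in moderate diet wild type, followed by Loxl2 at 55.4 ± 4.56 and 17.7 ± 1.08 RPKM in the same groups. P4ha2 stood at 13.1 ± 1.3 RPKM in enriched diet mutants, above Plod1 at 8.9 ± 0.619 RPKM; in moderate diet wild type it stood at 3.14 ± 0.372 RPKM, below Plod1 at 6.94 ± 0.375 RPKM. Lox and P4ha3 were the lowest in all groups, between 0.993 and 2.41 RPKM on average.

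Moderate diet mutant replicate 3 lay below the rest of its group in most of the genes that rose. On the log2 scale, with the moderate diet wild type mean at 0% and the mean of the other moderate diet mutants at 100%, it lay at 42.4% for P4ha1, 47.1% for P4ha2, 47.3% for Loxl2, 33.4% for Plod1, 25.5% for Plod2 and -33% for Lox. The 21 genes of a low oxygen list that rose on this diet placed it at a median of 32%, from 19.2 to 80.6%. Those 21 genes and the 6 above were picked because they passed on this diet with replicate 3 included. Their placing is therefore a description and not a separate test. For P4hb, Plod3 and Serpinh1 the values of replicate 3, 1002, 65.5 and 977 CPM, lay within the range of the other moderate diet mutants, except that its Serpinh1 was the highest. Without it, the log2 fold change of mutants over wild type on the moderate diet was 1.37 for P4ha1, 2.17 for P4ha2, 1.37 for Plod2 and 1.62 for Loxl2, and the same 6 genes passed.

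**Figure D4:**
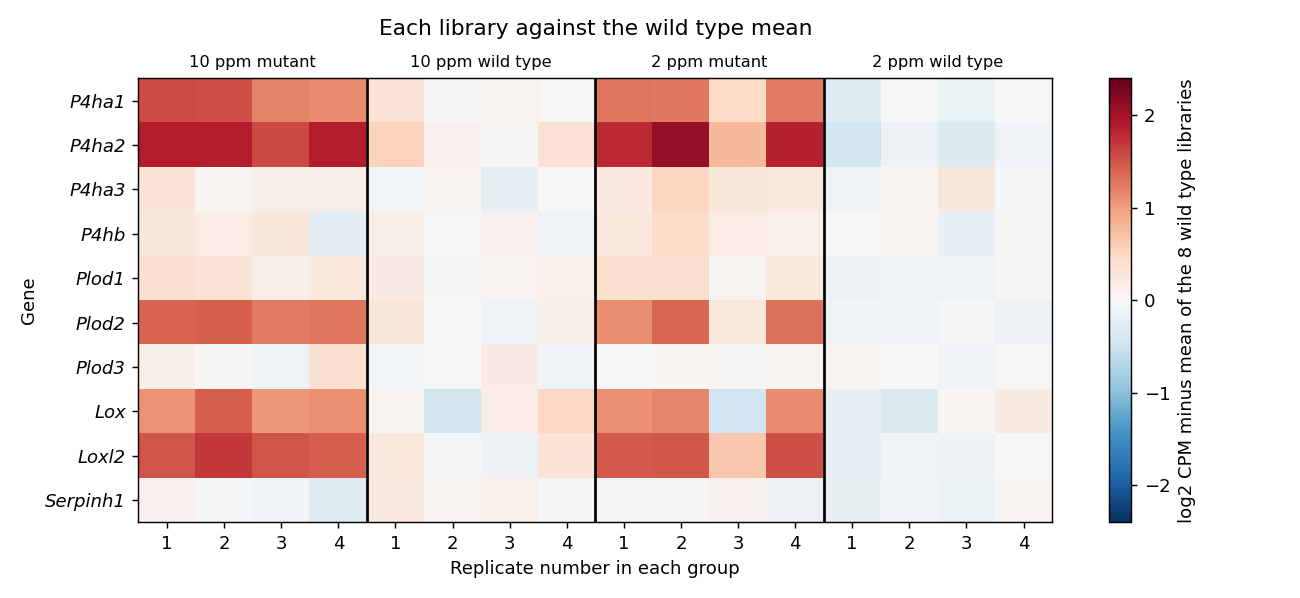
Log2 CPM of each gene in each library minus its mean over the 8 wild type libraries, as a colour scale, with libraries in columns by group and replicate number. Moderate diet mutant replicate 3 is paler than the other mutants in P4ha1, P4ha2, Plod2 and Loxl2, and its Lox is below the wild type mean.

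None of the 10 genes passed for diet. In mutants, the log2 fold change of 10 ppm over 2 ppm ran from -0.13 for P4ha3 to 0.26 for P4ha1, whose 95% interval was -0.06 to 0.59, and the smallest edgeR adjusted p of the 10 genes was 0.517. In wild type it ran from -0.09 for P4ha3 to 0.46 for P4ha2, whose 95% interval was -0.02 to 0.94, and the smallest edgeR adjusted p was 0.967. P4ha1 and P4ha2 were higher in all 4 enriched than in all 4 moderate diet wild type libraries, as were 1.47% of all genes. Of all genes, 0% passed for diet in mutants or in wild type in edgeR, while 10.8 and 2.44% had an unadjusted p under 0.05. Of the 10 genes, none in mutants and 1 in wild type, Serpinh1 (0.22 ± 0.10), were under that unadjusted value. For the difference between the genotype effects, 0% of all genes passed and 9.65% had an unadjusted p under 0.05, none of them among the 10, with Serpinh1 nearest (-0.26, 95% interval -0.53 to 0.00, edgeR adjusted p = 0.501). The intervals leave room for diet effects of up to 0.94 for P4ha2 and 0.78 for Lox on the log2 scale.

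Of 22 other genes of collagen maturation, 6 rose on the enriched diet and 2 on the moderate diet and none fell, with medians of 0.07 and 0.16. Beside these and the next counts stand the shares of all genes, of which 14.4% rose and 16.8% fell on the enriched diet and 4.79% rose and 2.83% fell on the moderate diet. P3h3, a prolyl 3-hydroxylase family member, averaged 23.3 ± 8.43 CPM in enriched diet mutants, against 13.0 ± 2.03 CPM in enriched diet wild type, and 17.5 ± 3.43 CPM in moderate diet mutants, against 11.0 ± 1.27 CPM in moderate diet wild type. It rose by 0.90 on the enriched diet and 0.67 on the moderate diet (edgeR adjusted p = 0.00238 and 0.0369). Tmem38b, an endoplasmic reticulum cation channel needed for collagen processing, rose by 0.30 and 0.42 (edgeR adjusted p = 0.0195 and 0.00955). P3h2, another prolyl 3-hydroxylase, and Adamts3, a protease that trims procollagen, rose on the enriched diet by 0.52 and 0.77 (edgeR adjusted p = 0.00242 and 0.00301); their moderate diet values of 0.26 and 0.39 did not pass.

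The collagen chains that these enzymes act on were measured beside them. Of 18 fibrillar and other mesenchymal chains, 1 rose on each diet and none fell, Col12a1 on the enriched diet (0.86, edgeR adjusted p = 0.0122) and Col1a1 on the moderate diet (1.44, edgeR adjusted p = 0.0406). A single riser among 18 is below the share of all genes that rose on the enriched diet and near that on the moderate diet. Col1a1, the main chain of type I collagen, averaged 57.0 ± 11.7 CPM in enriched diet mutants, against 33.2 ± 7.64 CPM in enriched diet wild type. Among the moderate diet mutants it averaged 95.3 ± 87.3 CPM, ranging from 46.5 to 226 CPM, against 34.8 ± 8.93 CPM in moderate diet wild type. Col1a2 and Col6a3 passed only over both diets, at 0.38 and 0.80 (edgeR adjusted p = 0.0176 and 0.0424). Of 7 basement membrane chains tested, 3 rose and 1 fell on the enriched diet, and none rose and 1 fell on the moderate diet. Col4a6, Col4a5 and Col4a2 rose on the enriched diet by 0.59, 0.41 and 0.30 (edgeR adjusted p = 0.000858, 0.0042 and 0.0324). Col15a1 fell to 10.4 ± 3.07 CPM in enriched diet mutants, against 19.8 ± 2.55 CPM in enriched diet wild type, and to 8.27 ± 1.78 CPM in moderate diet mutants, against 19.4 ± 1.09 CPM in moderate diet wild type.

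Folding genes of the endoplasmic reticulum, where P4hb and Serpinh1 also reside, moved mostly downwards on the enriched diet. Of 17, 1 rose and 10 fell on the enriched diet (median -0.37), and 1 rose and 2 fell on the moderate diet (median -0.05). The shares of all genes that rose and fell were 14.4 and 16.8% on the enriched diet and 4.79 and 2.83% on the moderate diet. The riser was Ero1l, an oxidase that recharges protein disulfide isomerase, at 227 ± 26.1 CPM in enriched diet mutants, against 48.7 ± 6.88 CPM in enriched diet wild type, and at 171 ± 66.9 CPM in moderate diet mutants, against 45.4 ± 2.34 CPM in moderate diet wild type. The chaperone Hyou1 fell by 0.55 on the enriched diet and by 0.34 on the moderate diet (edgeR adjusted p = 0.000352 and 0.0169). Creld2 and the co-chaperone Dnajb11 fell by 0.67 and by 0.59 on the enriched diet (edgeR adjusted p = 0.000436 and 0.000586), while their moderate diet values, both -0.28, did not pass.

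Low oxygen genes outside the collagen enzymes were high in the same libraries. Of 22, 21 rose and 1 fell on each diet, with medians of 1.46 on the enriched and 1.44 on the moderate diet. The fall was Pfkfb4 (-0.64 and -0.60), a glycolysis regulator named after its values were seen. Of all genes, 14.4% rose and 16.8% fell on the enriched diet, and 4.79% rose and 2.83% fell on the moderate diet. All 22 genes were listed with earlier results of these data known, so their counts are not independent evidence. Their summed level ran from 11435 to 14978 CPM in enriched diet mutants, against 6776 to 8500.2 CPM in enriched diet wild type, and from 9569 to 17163 CPM in moderate diet mutants, against 5769 to 6423 CPM in moderate diet wild type. The vasodilator peptide gene Adm rose by 5.37 on both diets on the log2 scale. Ndufa4l2, which encodes a mitochondrial protein, rose by 3.56 and 3.83 on that scale (enriched diet first). In the same order, the repressor Bhlhe40 rose by 4.91 and 4.35 and the growth inhibitor Ddit4 by 3.09 and 3.20. All 4 passed the test on both diets. Of 10 oxygen sensing genes, 3 rose and 2 fell on the enriched diet, and 2 rose and 1 fell on the moderate diet. Egln1 and Egln3 stand in both lists, so both moderate diet risers and 2 of the 3 enriched diet risers were already counted among the 21. These prolyl hydroxylases, which mark hypoxia-inducible factors for destruction, rose by 1.60 and 1.89 on the enriched diet and by 1.55 and 1.88 on the moderate diet. Their relative Egln2 fell by 0.47 on the enriched diet, and Hif1a fell by 0.46 there and by 0.35 on the moderate diet. The part of these genes in the collagen enzyme values was not tested.

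Cell type markers were measured because collagen enzymes differ between tissues. Their counts stand beside the shares of all genes. On the enriched diet 14.4% of all genes rose and 16.8% fell, and on the moderate diet 4.79% rose and 2.83% fell. Head mesenchyme markers summed to 564 to 649.9 CPM in enriched diet mutants, against 557 to 629 CPM in enriched diet wild type, and to 563 to 641 CPM in moderate diet mutants, against 539.8 to 624 CPM in moderate diet wild type. Of these 15 markers, 2 rose and 3 fell on the enriched diet and 1 rose and 2 fell on the moderate diet, and their summed ranges overlapped. Endothelial markers went 2 up and 5 down of 13 on the enriched diet and 2 up and none down on the moderate diet, summing to 439.5 to 481 CPM in enriched diet mutants, 473 to 533 CPM in moderate diet mutants, 451 to 517 CPM in enriched diet wild type and 413 to 493 CPM in moderate diet wild type. Of 12 neuroepithelium markers, 1 rose and 1 fell on the enriched diet and none passed on the moderate diet. They summed to 2017 to 2376 CPM in enriched diet mutants and 2119.9 to 2321 CPM in enriched diet wild type. On the moderate diet they ran from 2295 to 2453 CPM in mutants and 2245 to 2453 CPM in wild type. Of 10 surface ectoderm markers, 2 and 1 rose (enriched diet first). They summed to 281 to 362 CPM in enriched diet mutants and 249.6 to 365 CPM in enriched diet wild type. On the moderate diet they ran from 313 to 384 CPM in mutants, wholly above 271 to 308 CPM in wild type. Notochord and floor plate markers were lower in mutants, at 66.9 to 99.2 CPM in enriched diet mutants, 82.4 to 119 CPM in moderate diet mutants, 161 to 175 CPM in enriched diet wild type and 166 to 168 CPM in moderate diet wild type. Of 7 of these tested, 1 rose and 5 fell on the enriched diet and 1 rose and 4 fell on the moderate diet. Of 10 erythroid markers tested, 3 fell on the enriched and 1 on the moderate diet, and their sum ran from 730.0 to 3610.2 CPM in enriched diet mutants, 1261 to 3421 CPM in moderate diet mutants, 1538 to 3863 CPM in enriched diet wild type and 2492 to 6578 CPM in moderate diet wild type. Cardiomyocyte markers summed to at most 9.37 CPM in any library. Myl2 was at 0 in all mutants and in moderate diet wild type, and at most 0.0305 CPM in enriched diet wild type. Yolk sac markers summed to at most 40.2 CPM, with Apoc2 at 0 in every library, except for 139 CPM in enriched diet mutant replicate 4. Of 6 cardiomyocyte, 9 yolk sac and 3 decidua and trophoblast markers tested, 1, 0 and 1 rose and 0, 0 and 1 fell on the enriched diet, and 0 rose and 0, 0 and 1 fell on the moderate diet. The part of these cell types in the collagen enzyme values was not tested.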

How the data were processed

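The deposited files hold raw counts per gene symbol for 16 libraries, 1 file each, made by the authors from RNA-seq reads. FastQC 0.11.5, TopHat2 2.1.1, SAMtools 1.8, HTSeq 0.9.1, DESeq2 1.22.2 and the mm10 build are named in the submitters' processing notes, and an Illumina TruSeq RNA v2 kit in the labels' protocols. Whether counting used strand was not stated. The 5 summary lines of each file were left out; reads in no gene made up 13.7 to 17.0% and ambiguous reads 1.20 to 1.39%.

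Genes reaching 10 counts in 4 or more libraries were fitted with edgeR 4.0.16 in R 4.3.3 (quasi-likelihood test, TMM scaling, all 16 libraries, group and labelled sex as terms). Contrasts were mutant against wild type on each diet and as the mean of diets, enriched against moderate diet in each genotype, and the difference between genotype effects. P-values were adjusted by Benjamini-Hochberg over 14514 genes, with a threshold of 0.05, after the script was tested on simulated data. CPM used TMM-scaled library sizes; RPKM divides CPM by exonic kilobases of GENCODE vM21. Library depth and the 4 libraries per group limit the precision.

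Alternatives were median-of-ratios scaling, DESeq2 1.42.0, limma-voom 3.58.1, other filters, other covariates, the replicate number as a block, and libraries left out. The members and lists were chosen with earlier results of these data known. Named genes were all 10 members, Ift88, and up to 4 per list with the smallest p for the mean genotype effect; marker lists are given as counts and sums.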

Additional observations from a re-analysis of the deposited data

Results flagged for a closer look

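In 6 of 40 sets of 4 libraries (10 genes in 4 groups), 1 library stood apart by Dixon's test at the 95% level on log2 CPM; chance flags about 1 in 20 such sets. Moderate diet mutant replicate 3 was low for P4ha1 at 167 CPM (285 to 294 CPM in the other moderate diet mutants), for Loxl2 at 162 CPM (287 to 302 CPM) and for Lox at 3.58 CPM (10.5 to 11.1 CPM). Enriched diet mutant replicate 3 was low for P4ha2 at 69.6 CPM (85.4 to 86.3 CPM). It is also the library with 191 CPM of decidua and trophoblast markers, of which Prl8a2 alone gave 189 CPM. The part of such tissue in the P4ha2 value was not tested. P4ha3 was high in moderate diet mutant replicate 2 at 8.65 CPM (7.14 to 7.25 CPM), and Lox was high in enriched diet mutant replicate 2 at 13.3 CPM (10.1 to 10.5 CPM).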

How the results depend on the processing

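P4ha1, P4ha2 and Loxl2 passed for genotype on both diets in every alternative run, and no member's called value changed sign. Of 800 genotype values of the members under alternatives, 757 kept their side of the threshold, 1 of them changing sign without being called (Plod3 on the moderate diet, 0.04 with all libraries and -0.01 without moderate diet wild type replicate 3), 27 lost the call and 16 gained one. Without the 3 libraries of contradicted sex, 3 of the 10 genes passed on the moderate diet (6 with all libraries) and the counts over all genes were 105 on the moderate diet (1106 with all) and 2964 for the mean of diets (5202 with all); this leaves 2 moderate diet mutants. Fitting the moderate diet groups alone gave 719 genes. Leaving out 1 library at a time gave 4 to 7 members on the moderate diet, 5 to 6 on the enriched diet and 6 to 8 for the mean, and 538 to 2107 genes on the moderate diet, 2107 without moderate diet mutant replicate 3 and 538 without replicate 1. It gave 3023 to 4872 genes on the enriched diet, 4177 to 5563 for the mean and 0 to 1 for diet in mutants. DESeq2 called 3 genes for diet in mutants and 1 in wild type, limma-voom 0 in both; each called 0 for the difference between genotype effects. Taken over all 4 groups together, replicate numbers gave no clear pairing of the libraries. Pairs from the same and from different diets were pooled, so a pairing within a diet was not checked. On the enriched diet, reads in no gene made up 14.7, 14.8, 13.7 and 17% in mutant replicates 1 to 4. In wild type replicates 1 to 4 of that diet they made up 14.7, 15.2, 15.1 and 16.8%. Same-number correlations across groups ran from -0.29 to 0.49 (median 0.04), against -0.43 to 0.4 (median -0.05) for other numbers. Of 16 libraries, 5 correlated best with their own number. Whether libraries of the same number shared a batch was not tested. With the replicate number as a block, 5 members passed on the moderate diet, where Lox did not, and 5 on the enriched diet. For the mean 8 passed, where P4hb was added. Over all genes the block gave 1453, 4979 and 5645, against 1106, 4524 and 5202 without it, and 0 for diet and for the difference. Plod1 gained the call on the enriched diet in 8 of 27 alternatives and P4hb for the mean in 7 of 26. The cause of these changes was not tested.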
